A study of Mus musculus with 32 samples.

Results

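Immediate early genes are transcribed within minutes of a stimulus without new protein synthesis, and 10 of the 22337 genes in the deposited tables are followed here: Fos, Fosb, Junb, Egr1, Egr2, Egr4, Arc, Npas4, Ier2 and Dusp1. They were chosen by symbol as the most used members of this class, and all 10 symbols name the same gene in both deposited tables. Fos, Fosb and Junb encode parts of the AP-1 dimer, Egr1, Egr2 and Egr4 encode zinc finger factors, and Npas4 and Ier2 encode 2 further nuclear regulators. Arc encodes a synaptic capsid-like protein and Dusp1 a phosphatase of MAP kinases. The study applied near-infrared light through the skull to mice with amyloid pathology and sequenced hippocampus, meninges and sorted meningeal lymphatic endothelial cells (mLECs). All animals were males of 6 months on the C57BL/6J background. The 5xFAD mice carry transgenes driven by Thy1 regulatory sequence, which is active mainly in neurons, and WT mice are littermates without the transgenes. Light-treated 5xFAD mice had repeated sessions over weeks under isoflurane with a shaved scalp, and the other groups had the same handling under indoor lighting.

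Each library came from 1 mouse. Hippocampus has 4 libraries in each of the 3 groups, and meninges and mLECs each have 4 from WT, 3 from untreated 5xFAD and 3 from light-treated 5xFAD mice. No group of WT mice given light was sequenced, so an effect of light outside the 5xFAD genotype cannot be read from these libraries. The time between the last session and tissue collection is not stated in the sources used here. The comparison of 5xFAD with WT holds the whole transgene, so the transgene products and the added Thy1 sequence cannot be told apart. Thy1 itself read 181 ± 8.13 FPKM in WT hippocampus, 510 ± 104 in untreated and 471 ± 40.3 in light-treated 5xFAD hippocampus, and the lowest carrier value of 407 lies above the highest WT value of 189.

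In neurons these genes are switched on by calcium entry and MAP kinase signalling acting through CREB and serum response factor, and their transcripts last from minutes to a few hours. Serum response factor also drives Fos, Junb, Egr1, Ier2 and Dusp1 in endothelial cells and fibroblasts after growth factors, stretch or tissue dissociation, while Npas4 and Arc are largely neuronal. Dusp1 feeds back on the pathway by removing phosphate from the kinases that induce it.

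Hippocampal libraries summed to between 13952825 and 23856476 counts, meningeal ones to 6601143 to 14708202 and those of mLECs to 14231415 to 24207326, and 16371 to 18264, 17427 to 19769 and 5998 to 9020 genes were above 0. Biological coefficients of variation were 0.198, 0.350 and 1.89, so mLECs vary most by far. Marker genes match the tissue labels: WT meninges hold more of 7 of 8 leptomeningeal fibroblast markers and less of 10 of 10 neuronal markers than WT hippocampus, all called. WT meninges also hold more of 5 of 5 choroid plexus and 5 of 5 pineal markers, all called. Mean sums there were 33861 FPKM for choroid plexus, 383 for pineal and 1240 for fibroblast markers, so these libraries contain RNA of neighbouring tissues. The mLECs were sorted as living cells negative for CD45 and positive for CD31 and PDPN, and in them the leukocyte marker Ptprc read 0 in all 10 libraries and the endothelial marker Pecam1 read 189 to 398 FPKM. Other macrophage markers appeared in single libraries: C1qc read 59.25 in WT mouse 1, C1qb 40.3 in WT mouse 3 and Mrc1 15.0 in untreated 5xFAD mouse 4. The sum of the 7 microglial and macrophage markers was at most 59.25 in WT, 14.97 in untreated and 2.92 in light-treated 5xFAD mice. The 7 lymphatic markers there summed to 7078, 227, 4677 and 302 FPKM in WT mice 1 to 4, to 1447, 2081 and 4728 in untreated 5xFAD mice 1, 2 and 4, and to 9930, 3347 and 8993 in light-treated 5xFAD mice 1 to 3. WT mice 2 and 4 are the lowest: their Ccl21a, the most abundant gene of the list, read 3.54 and 0 against 998 to 9356 elsewhere, and their Lyve1 read 0 in both. Pdpn read 0 in both but does not set them apart, at 0 also in untreated 5xFAD mice 2 and 4 and 0.04 in light-treated mouse 3. The Mmrn1 values of WT mice 2 and 4, 0.0600 and 19.7, are the 2 lowest of the 10 libraries. Flt4 at 34.4 and 30.3 is not low against 15.1 in WT mouse 1, and Prox1 read 0 in mouse 2 and 5.71 in mouse 4, the highest of all. Changes of the members in mLECs against WT are therefore given with and without these 2 libraries. Markers, other genes and the factors between tissues are given with them.

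By dentate granule or fibroblast markers 2 hippocampal libraries also stand apart. Untreated 5xFAD mouse 3 had the lowest sum of dentate granule cell markers (9.38 FPKM against 68.8 to 201 in the other 11), and untreated 5xFAD mouse 4 had the highest sum of leptomeningeal fibroblast markers (116 against 11.1 to 57.8). Untreated 5xFAD mouse 1 had the highest astrocyte sum (3145), the highest microglial sum (2087) and the highest Fosb (15.9) of the hippocampal libraries. Among the members, untreated 5xFAD mouse 3 was the highest of its group for 7 of 10 and mouse 4 the lowest for 8 of 10. Hippocampal results below are given with and without each library on which they turn.

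In the hippocampus the members span from Junb to Npas4. Mean FPKM over the 12 libraries was 45.6 for Junb, 42.9 for Egr1, 40.3 for Arc, 17.7 for Dusp1, 16.0 for Fos, 8.40 for Ier2, 3.38 for Fosb, 3.09 for Egr4, 1.96 for Egr2 and 1.20 for Npas4. With the 3 groups pooled, the ranges of Junb, Egr1 and Arc overlap, as do those of Dusp1 and Fos and of Fosb and Egr4. Within groups some separate. In WT mice Egr1 (47.7 to 53.3) lies above Junb (37.9 to 43.3) and Dusp1 (at least 15.1) above Fos (at most 12.8). In light-treated mice Egr1 (24.8 to 30.9) lies below Junb (34.25 to 44.6) and Fosb (at most 1.65) below Egr4 (at least 2.16). Among the genes above 0 in that tissue Junb lies at percentile 90.1, Fos at 77.2 and Ier2 at 66.6.

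Meninges carried a different order. Junb averaged 91.3 FPKM, Dusp1 86.4, Ier2 51.9, Fos 49.2, Egr1 49.1, Egr2 2.09, Fosb 1.47, Arc 1.30, Egr4 0.231 and Npas4 0.107. With the 3 groups pooled, the ranges of Junb and Dusp1 overlap, as do those of Ier2, Fos and Egr1 and those of Egr2, Fosb and Arc. Egr4 had 0 to 15 counts per library and Npas4 0 to 14, and neither passed the expression filter, so 8 of 10 members were tested there.

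The mLECs held 6 of the 10 transcripts high in their expression range. Dusp1 averaged 2017 FPKM, Fos 1896, Junb 1601, Ier2 939.8, Egr1 436, Fosb 121, Egr2 21.3 and Arc 1.33, while Egr4 and Npas4 read 0 in all 10 libraries. Dusp1, Fos and Junb each lie at percentile 99.7, with Ier2 at 99.4, Egr1 at 98.5 and Fosb at 93.9. Over the 10 libraries the ranges of Dusp1, Fos and Junb overlap. In untreated 5xFAD mice alone, Junb (at most 996) lies below Fos (at least 1478) and Dusp1 (at least 2028). Arc came almost wholly from WT mouse 3 (13.2 FPKM) with 0.120 in WT mouse 4 and 0 in the other 8. Arc, Egr4 and Npas4 did not pass the filter, leaving 7 of 10 members tested in mLECs against 10 of 10 in hippocampus.

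With all 4 WT libraries kept, WT means in mLECs stood above those of WT hippocampus by factors of 176 for Fos, 165 for Ier2, 96.7 for Dusp1, 75.3 for Junb, 50.0 for Fosb, 34.7 for Egr2 and 14.5 for Egr1. Against WT meninges the factors were 80.4 for Fosb, 56.3 for Fos, 29.0 for Junb, 24.8 for Egr2, 20.6 for Dusp1, 18.1 for Ier2 and 15.7 for Egr1. The WT means in mLECs rest partly on WT mouse 2, which holds 159 FPKM of Egr2 against 0, 19.0 and 26.5 in the others and 1477 of Egr1 against at most 657. Its Fosb of 304 also stands above at most 108 in the others. Without it the factors are far smaller for Egr2 and smaller for Egr1 and Fosb. For scale, WT means of Egr2 were 1.47 FPKM in hippocampus and 2.06 in meninges, and those of Egr1 were 50.1 and 46.3. The mLECs were the only material digested with enzymes and sorted, and their values come from a separate table, so cell type, dissociation and table cannot be told apart and no test was run.

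**Figure D1:**
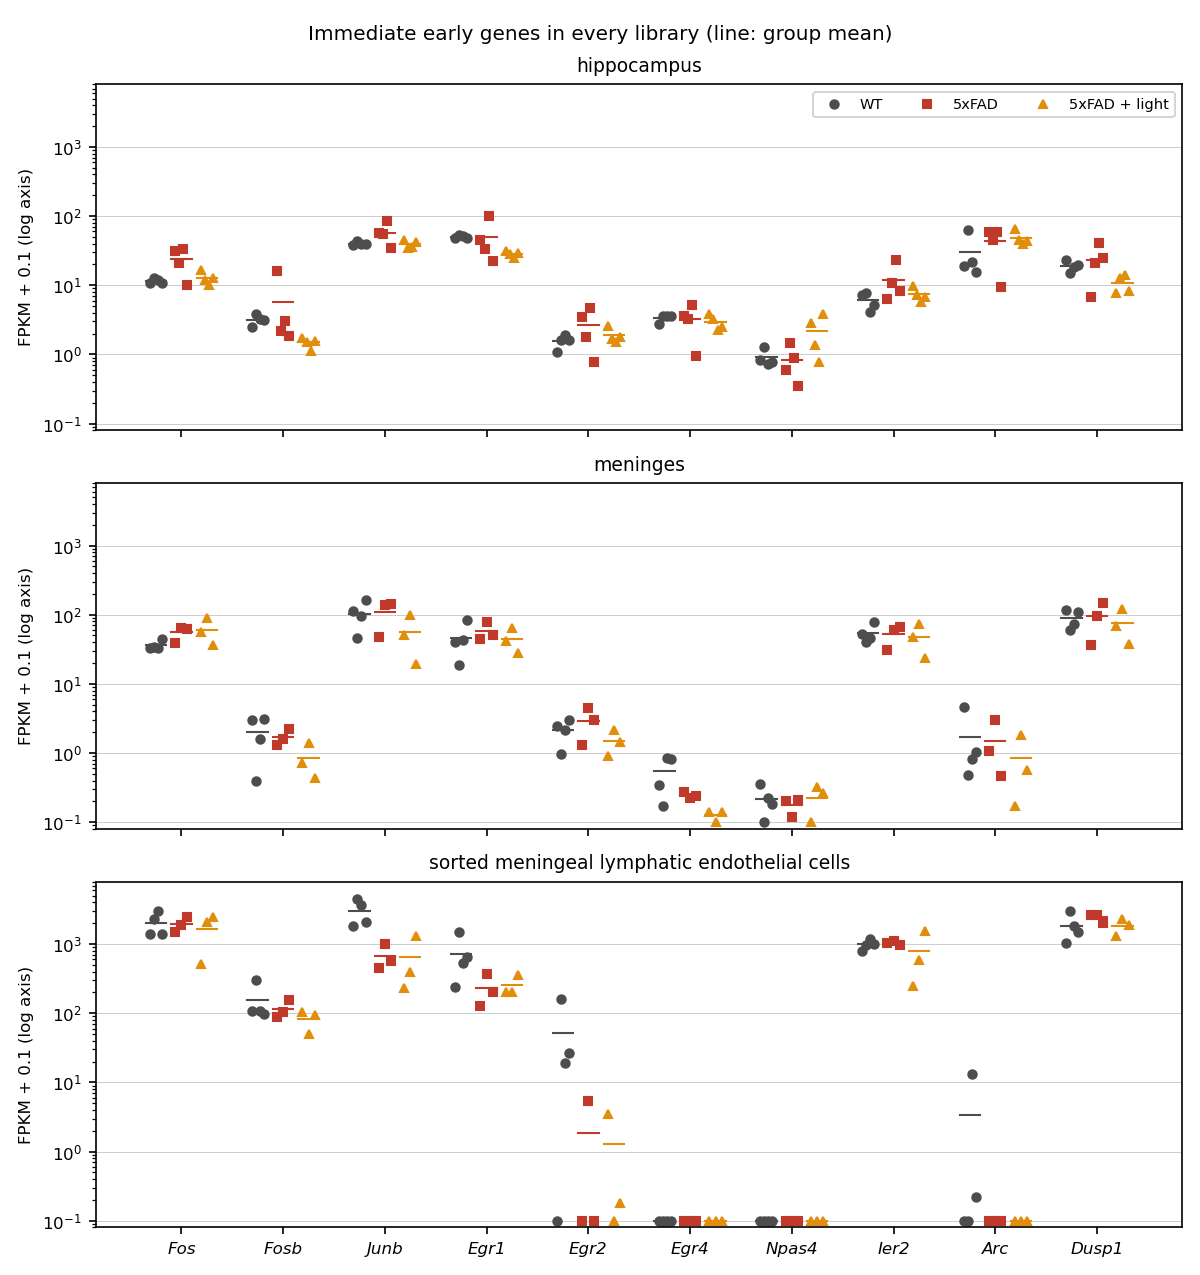
FPKM of the 10 members in every library of hippocampus, meninges and mLECs, with 0.1 added for the log axis. Each point is 1 mouse and each line the mean of its group.

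Between untreated WT tissues the members were called at a share near that of all genes. WT meninges carried more Fos, Junb, Ier2 and Dusp1 and less Arc than WT hippocampus. Of 15132 genes tested, 51.4% were called and 74.7% had unadjusted p under 0.05. Of the 10 members 7 were called, each also with unadjusted p under 0.05. These 7 hold Egr4 and Npas4, which were tested through hippocampus alone. Of the 8 members that passed the filter in meninges, Ier2, Fos, Dusp1, Junb and Arc were called, a share near that of all genes. Fos read 10.7, 12.8, 11.96 and 10.5 FPKM in WT hippocampus and 32.55, 34.5, 32.7 and 43.8 in WT meninges, mice 1 to 4. Ier2 read 7.14, 7.74, 3.98 and 5.09 against 52.9, 40.5, 46.3 and 78.2. For both genes every meningeal library lies above every hippocampal one. Ier2 was higher in meninges by edgeR's quasi-likelihood test with Benjamini-Hochberg adjustment (log2 fold change 3.11, standard error 0.40, adjusted p=7.2e-07), as were Fos (1.57, 0.30, adjusted p=0.00011), Dusp1 (2.10, 0.47, adjusted p=0.000453) and Junb (1.30, 0.41, adjusted p=0.00759). Arc was lower in meninges (-4.18, 0.79, adjusted p=8.01e-05), by -5.59 without meningeal WT mouse 1, whose Arc of 4.48 FPKM stands above 0.380 to 0.930 in the others. Egr4 (-3.05) and Npas4 (-2.73) make up the 7 called, but both failed the filter in meninges and entered the joint fit through hippocampus alone, so a lower meningeal level was a condition of being tested and the changes are a description. Fosb (-0.83, adjusted p=0.218), Egr2 (0.36, adjusted p=0.517) and Egr1 (-0.20, adjusted p=0.656) did not differ by edgeR's quasi-likelihood test. Leaving out meningeal WT mouse 4 brought Junb to 0.98, under the 2-fold line. DESeq2 called 7 members and limma 6. The median over all 10 members stood at 0.08 beside 0.12 for all genes. It holds Egr4 and Npas4, whose lower level was a condition of being tested, and so is not read as a result. In bulk tissue fewer cells of a type and less RNA per cell cannot be told apart.

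In the hippocampus of untreated 5xFAD mice the AP-1 gene Fos was called higher, a call lost in most fits with a library left out. Junb was higher on average short of the test, and Fosb did not move as a group. Of the EGR factors Egr2 was higher on average, and the mean of Egr1 equals that of WT through 1 high mouse. Neuronal Arc and Npas4 overlapped between the groups. The spread among untreated 5xFAD mice was much wider than among WT mice for most members.

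Fos read 10.7, 12.8, 11.96 and 10.5 FPKM in WT mice and 30.9, 21.0, 33.2 and 9.91 in untreated 5xFAD mice. Mice 1, 2 and 3 of the 5xFAD group lie above all WT mice, and mouse 4 lies below them, so the groups overlap. Means were 11.5 ± 1.08 and 23.8 ± 10.6. By edgeR's quasi-likelihood test Fos rose 2.09-fold (log2 fold change 1.07, 95% interval 0.44 to 1.70, BH-adjusted p=0.0377), the only member called by edgeR between groups of a tissue at the settings used throughout. The call turns on single libraries: without WT mouse 1, 2, 3 or 4 the adjusted p was 0.103, 0.0744, 0.0847 and 0.109, and without 5xFAD mouse 1 or 3 it was 0.104 and 0.0854, with changes of 0.89 and 0.87. Without 5xFAD mouse 2 or 4 the call held (1.13, adjusted p=0.0456, and 1.33, adjusted p=0.000831). The call was also lost with mouse number as a block, with the 2 groups fitted alone and by limma. Over all alternatives the adjusted p of Fos ran from 0.000831 to 0.109.

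Junb read 37.9, 43.3, 39.6 and 39.1 FPKM in WT mice and 57.3, 54.7, 84.0 and 34.35 in untreated 5xFAD mice. Ier2 read 7.14, 7.74, 3.98 and 5.09 in WT mice and 6.25, 10.5, 22.8 and 8.18 in untreated 5xFAD mice. Mouse 4 for Junb and mouse 1 for Ier2 lie inside or below the WT values, so both genes overlap between groups. Fosb read 2.40, 3.71, 3.11 and 3.08 in WT mice and 15.9, 2.05, 2.97 and 1.74 in untreated 5xFAD mice, and its higher 5xFAD mean of 5.67 comes from mouse 1 alone, with mice 2 and 4 below every WT mouse. Without that mouse the Fosb change goes from 0.86 to -0.37.

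Of 12981 genes tested in hippocampus, 4.28% were called in this comparison and 24.0% had unadjusted p under 0.05, with 549 called higher and 7 lower. Of the 10 members 1 was called and 3 had unadjusted p under 0.05, the latter near the share of all genes. Beside Fos these are, by edgeR's quasi-likelihood test, Ier2 (1.00, standard error 0.34, BH-adjusted p=0.0947) and Junb (0.54, standard error 0.20, adjusted p=0.124). DESeq2 called 1 member and limma 0, each with 3 at unadjusted p under 0.05. The other changes were 0.86 for Fosb, 0.68 for Egr2, 0.56 for Arc, 0.30 for Dusp1, -0.19 for Npas4, -0.05 for Egr4 and 0.02 for Egr1. The median member stood at 0.55 beside 0.01 for all genes, with 8 above 0 and 2 below. Without untreated 5xFAD mouse 3 Ier2 came to 0.48 and Junb to 0.31, and Egr1 came to -0.57, since the other 3 untreated mice (45.1, 33.1 and 22.15 FPKM) lie below the lowest WT value of 47.7 and mouse 3 read 102. Without mouse 4 Junb came to 0.73 (adjusted p=0.00842, range over alternatives 0.00842 to 0.300), still under 2-fold. Without mouse 1 Ier2 was called (1.20, adjusted p=0.0471), and its adjusted p ran from 0.0342 to 0.261 over all alternatives.

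**Figure D2:**
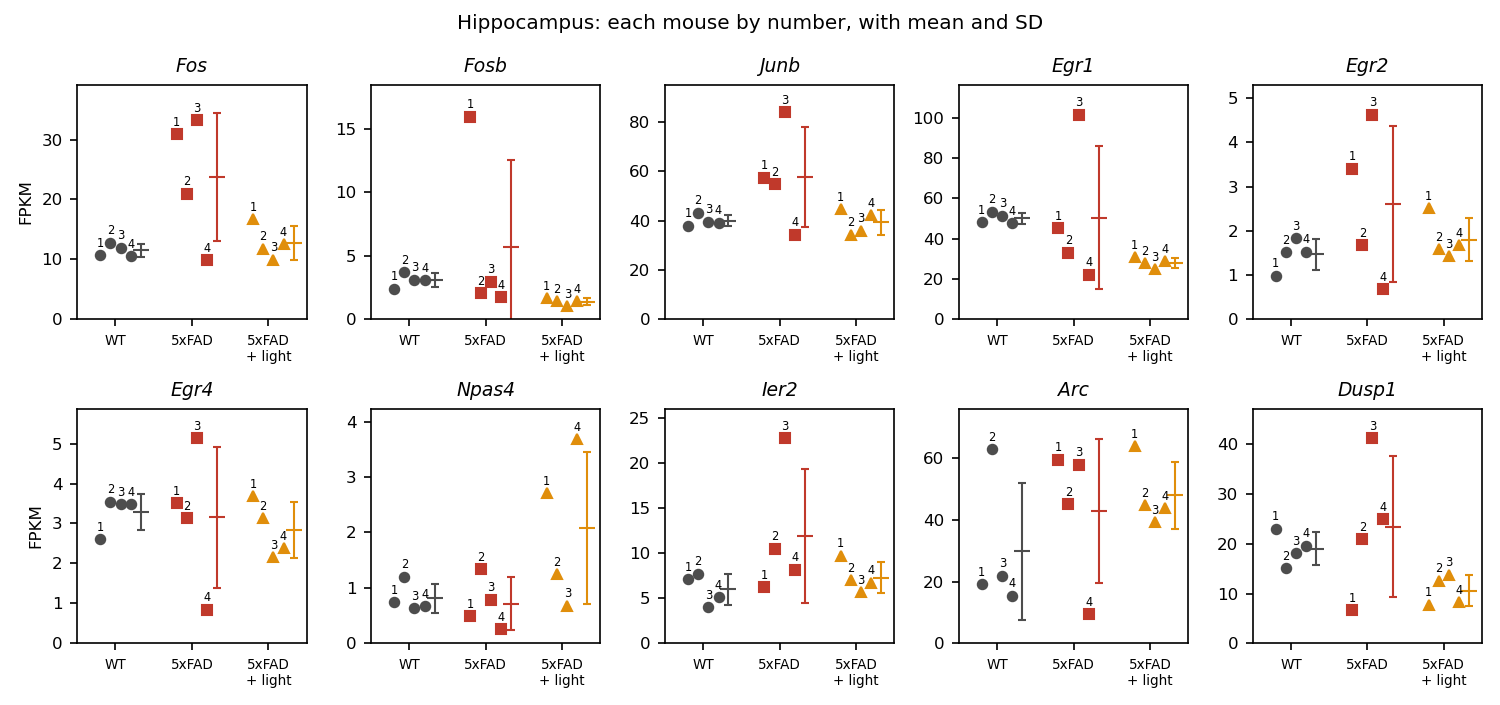
FPKM of the 10 members in the hippocampus by group. Points carry the mouse number, and lines give the group mean and SD.

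With light, hippocampal AP-1 members, Egr1 and the phosphatase gene Dusp1 read lower than in untreated 5xFAD mice, and none of them passed edgeR's test. Npas4 read higher with light on average, as a description only, since it passed the expression filter through the light-treated libraries. Arc and Egr4 were level between the 2 groups.

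Fosb read 1.65, 1.42, 1.03 and 1.45 FPKM in light-treated 5xFAD mice, and all 4 lie below the lowest untreated 5xFAD value of 1.74. Fos read 16.7, 11.8, 9.94 and 12.5 in the light-treated group, close to the WT values, and overlaps the untreated group through mouse 4 at 9.91. Junb read 44.6, 34.25, 35.9 and 42.2, with the same overlap. By edgeR's quasi-likelihood test the change with light was -1.87 for Fosb (standard error 0.55, BH-adjusted p=0.121), -0.91 for Fos (0.29, adjusted p=0.141) and -0.56 for Junb (0.20, adjusted p=0.175).

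Egr1 read 45.1, 33.1, 102 and 22.15 FPKM in untreated and 30.9, 27.8, 24.8 and 28.7 in light-treated 5xFAD mice. Dusp1 read 6.67, 21.0, 41.2 and 24.9 in untreated and 7.75, 12.6, 13.8 and 8.29 in light-treated mice. Mouse 4 for Egr1 and mouse 1 for Dusp1 lie below the whole light-treated group, so both overlap. Npas4 read 0.490, 1.34, 0.790 and 0.250 in untreated and 2.71, 1.25, 0.680 and 3.68 in light-treated mice, where mice 1 and 4 are above all others and mice 2 and 3 are not. Npas4 rests on few reads, from 14 to 210 counts per library over the 3 groups. The changes were -1.14 for Dusp1 (standard error 0.39) and -0.86 for Egr1 (0.34), with BH-adjusted p of 0.158 and 0.203 by edgeR's quasi-likelihood test. Npas4 stood at 1.59 (standard error 0.55). It reached 1 FPKM in 5 hippocampal libraries: light-treated mice 1, 2 and 4, WT mouse 2 and untreated mouse 2. It thus passed the filter only through the light-treated group, where it is high, and its change is a description.

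Of 12981 genes 0.270% were called and 18.3% had unadjusted p under 0.05, and edgeR called 0 of 10 members with 6 at unadjusted p under 0.05. Npas4, which entered the test through the light-treated group, is 1 of these 6. DESeq2 called 1 member, Fosb (-1.86, adjusted p=0.0470), with 7 at unadjusted p under 0.05, and limma called 0 with 5. Over all alternatives the adjusted p of Fosb ran from 0.0470 to 0.307. The members not yet given stood at -0.71 for Ier2 (adjusted p=0.289), -0.61 for Egr2, -0.16 for Egr4 and 0.14 for Arc. The median member was -0.66 beside -0.02 for all genes, with 2 above 0 and 8 below. These values share the untreated 5xFAD libraries with the comparison against WT, so a high untreated library raises the first change and lowers the second.

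Single libraries move these changes. Without untreated 5xFAD mouse 1 Fosb came to -0.65 and Dusp1 was called (-1.45, adjusted p=0.0455, range over alternatives 0.0455 to 0.390). Without mouse 3 Fos came to -0.71, Junb to -0.32, Egr1 to -0.27, Dusp1 to -0.71, Fosb to -2.06 and Npas4 to 1.67. Without mouse 4 Fos was called (-1.17, adjusted p=0.0376, range over alternatives 0.0376 to 0.296).

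Against WT, light-treated hippocampus carried Fos and Junb at the WT level. Egr1, Dusp1 and Fosb read below every WT mouse without passing edgeR's test on all 3 groups. Npas4 was higher on average. Egr1 read 48.0, 53.3, 51.5 and 47.7 FPKM in WT mice, and the highest light-treated value is 30.9. Dusp1 read 23.1, 15.1, 18.1 and 19.6 in WT mice against at most 13.8 with light. Neither gene overlaps between these 2 groups, and Fosb at 1.65 or less lies below the lowest WT value of 2.40. The share of all genes without overlap is not given here, so these 3 are a description. Egr1 changed by edgeR's quasi-likelihood test by -0.83 (standard error 0.34, BH-adjusted p=0.229), Dusp1 by -0.84 (0.39, adjusted p=0.298) and Fosb by -1.02 (0.55, adjusted p=0.383). Npas4 stood at 1.40 (standard error 0.54), a description, since it passed the filter through the light-treated group. Of all genes 2.36% were called and 16.7% had unadjusted p under 0.05, and edgeR called 0 of 10 members with 3 at unadjusted p under 0.05, DESeq2 and limma 0 each with 2. Npas4 is 1 of the 3 counted by edgeR. Arc stood at 0.70, Ier2 at 0.29, Egr4 at -0.20, Fos at 0.15, Egr2 at 0.07 and Junb at -0.02. The median member was 0.03 beside -0.00 for all genes. Fitted on these 2 groups alone, without the untreated 5xFAD libraries, edgeR called 1 member, Fosb. Over all alternatives the adjusted p of Egr1 ran from 0.000131 to 0.398, with a change that stayed under 2-fold.

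Arc shows why the order of hippocampal groups is not settled for every member. It read 19.1, 63.0, 21.9 and 15.4 FPKM in WT mice, 59.5, 45.1, 58.0 and 9.42 in untreated and 64.1, 44.8, 39.4 and 43.8 in light-treated 5xFAD mice. WT mouse 2 lies near the highest carrier and untreated mouse 4 is the lowest of all 12, so the groups overlap. Without WT mouse 2 the change of Arc against WT went from 0.56 to 1.20 in untreated and from 0.70 to 1.35 in light-treated 5xFAD mice, neither called, and every light-treated mouse lies above the other 3 WT mice. Egr2 read 0.990, 1.52, 1.84 and 1.53 in WT, 3.41, 1.68, 4.63 and 0.680 in untreated and 2.51, 1.59, 1.43 and 1.67 in light-treated mice. Egr4 read 2.61, 3.55, 3.48 and 3.49, then 3.51, 3.13, 5.13 and 0.840, then 3.68, 3.14, 2.16 and 2.38 in the same order of groups. For Egr2 and Egr4 untreated mouse 3 is the highest and untreated mouse 4 the lowest of all 12 libraries, and without mouse 3 the change of Egr2 in untreated 5xFAD against WT mice went from 0.68 to 0.12. WT mouse 2 was the highest of its group for 8 of 10 members, and in the light-treated group mouse 1 was the highest and mouse 3 the lowest for 8 each.

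Cell type markers moved beside the members in hippocampus, and their part in the result was not tested. Of the microglial markers 6 of 6 were called higher in each 5xFAD group than in WT mice, with summed levels of 367, 320, 342 and 320 FPKM in WT, 2087, 1207, 1034 and 1381 in untreated and 995, 778, 1364 and 1386 in light-treated mice, C1qb the most abundant. Leptomeningeal fibroblast markers summed to 51.1, 45.3, 28.1 and 33.9 in WT, 29.9, 57.8, 46.5 and 116 in untreated and 11.1, 24.9, 29.5 and 19.7 in light-treated mice, led by Dcn. Of these 8 genes 5 had unadjusted p under 0.05 higher in untreated 5xFAD than in WT mice with 3 called, and 6 were lower with light than in untreated 5xFAD mice with 1 called. Fos, Junb and Ier2 are also strongly expressed in meninges, where WT means exceed those of hippocampus by factors of 3.12, 2.60 and 9.10. In the untreated library richest in fibroblast markers, mouse 4, Fos is the lowest of the 12 and Junb the lowest of its group, while Ier2 at 8.18 FPKM lies above every WT mouse and Dusp1 at 24.9 is the highest but 1 of the 12.

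Dentate granule markers summed to 111, 119, 68.8 and 143 FPKM in WT, 133, 113, 9.38 and 132 in untreated and 188, 201, 134 and 130 in light-treated mice, C1ql2 leading, and 3 of 4 had unadjusted p under 0.05 higher with light than in untreated 5xFAD mice, 0 called. Choroid plexus markers, led by Ttr, summed to 113, 2819, 410 and 36.5, then 3216, 2940, 698 and 208, then 130, 116, 63.6 and 245, with 3 of 5 lower with light than in either other group at unadjusted p under 0.05, 0 called. Neuronal markers, led by Camk2a, summed to 4392, 4414, 4760 and 4862 in WT, 3386, 4209, 4462 and 3908 in untreated and 4162, 4355, 4654 and 4354 in light-treated mice, with 3 of 10 lower in untreated and 4 of 10 lower in light-treated 5xFAD than in WT mice at unadjusted p under 0.05, 0 called. Astrocyte markers, led by Gfap, summed to 753, 687, 656 and 649, then 3145, 1330, 788 and 1972, then 1156, 1185, 1519 and 1553, with Gfap called higher in both 5xFAD groups than in WT mice.

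Neutrophil markers, led by S100a8, summed to 1.44, 1.76, 0.740 and 0.850 FPKM in WT, 3.66, 7.97, 9.25 and 6.05 in untreated and 3.52, 0.250, 1.20 and 1.79 in light-treated mice. Of 2 tested both had unadjusted p under 0.05, higher in untreated 5xFAD than in WT mice (1 called) and lower with light (0 called). Mural markers, led by Rgs5, summed to 20.7, 17.15, 19.8 and 14.8, then 25.2, 20.3, 28.5 and 24.6, then 15.1, 18.2, 15.0 and 18.0, with 1 of 4 called higher in untreated 5xFAD than in WT mice and 2 lower with light at unadjusted p under 0.05. Erythroid markers, led by Hbb-bs, summed to 63.0, 77.1, 17.8 and 9.89, then 27.5, 187, 318 and 57.6, then 42.7, 78.7, 328 and 57.8, with 3 of 4 higher in untreated 5xFAD than in WT mice at unadjusted p under 0.05, 0 called. The part of these cells in the Fos result was not tested.

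Beside the 10 members, 40 other immediate early genes were read in hippocampus, with no test of the list. Of 37 tested, 20 were lower and 1 higher with light than in untreated 5xFAD mice at unadjusted p under 0.05 (18.3% of all genes in either direction), 0 called, with a median change of -0.63 beside -0.66 for the members, and by edgeR's quasi-likelihood test Ccn1 (-1.62, BH-adjusted p=0.0502) and Zfp36 (-1.41, adjusted p=0.0578) came closest. In untreated 5xFAD against WT mice 12 were higher and 2 lower (24.0% of all genes), with Atf3 (2.34, adjusted p=0.00221), Ccn1 (1.22, adjusted p=0.0320), Zfp36 (1.19, adjusted p=0.0241) and Rgs2 (1.12, adjusted p=0.0209) called like Fos. In light-treated 5xFAD against WT mice 9 were lower and 2 higher (16.7% of all genes) with a median of -0.22, where the members had 0.03, and Ccn2 (-1.86, adjusted p=0.0386) and Nr4a2 (-1.23, adjusted p=0.000858) were called where Egr1 and Dusp1 were not.

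Upstream of Fos and Egr1, of 29 genes of the serum response factor, CREB and MAP kinase path 11 were higher and 2 lower with light at unadjusted p under 0.05 (18.3% of all genes), with a median of 0.19 and 0 called, led by Mapk3 (0.62) and Camk2a (0.43). Elk3 (1.19, adjusted p=0.00190) and Rps6ka1 (1.16, adjusted p=0.00180) were called higher in untreated 5xFAD than in WT mice by edgeR's quasi-likelihood test, while 8 of the 29 were lower and 3 higher at unadjusted p under 0.05 (24.0% of all genes) with a median of -0.08. Of 22 late genes of the response to activity tested, 9 were lower and 1 higher with light at unadjusted p under 0.05 (18.3% of all genes) and 0 were called. Whether the members drive these genes was not tested. In untreated 5xFAD against WT mice 7 were higher and 1 lower (24.0% of all genes), with 3 called higher. Penk, 1 of these 3, was called higher there by edgeR's quasi-likelihood test (1.72, adjusted p=0.0194) and read lower with light short of the line (-1.88, adjusted p=0.0650).

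In meninges the members were led by Fos, which was higher on average in both 5xFAD groups than in WT mice, while Junb, Egr2 and Fosb read lower with light. None passed the test by any of the 3 tools. Fos read 32.55, 34.5, 32.7 and 43.8 FPKM in WT mice, 38.7, 64.6 and 62.4 in untreated 5xFAD mice 1, 2 and 4, and 56.2, 89.7 and 36.9 in light-treated 5xFAD mice 1, 2 and 4. Untreated mouse 1 and light-treated mouse 4 lie below WT mouse 4, so both 5xFAD groups overlap WT. By edgeR's quasi-likelihood test Fos changed by 0.63 in untreated 5xFAD against WT (standard error 0.28, BH-adjusted p=0.987) and by 0.74 in light-treated 5xFAD against WT (0.28, adjusted p=0.225), with both comparisons sharing the WT libraries. Between the 2 carrier groups Fos stood at 0.11.

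Junb read 111, 46.1, 94.8 and 163 FPKM in WT, 47.9, 139.6 and 142 in untreated and 51.25, 98.25 and 19.0 in light-treated 5xFAD mice. Egr2 read 2.38, 0.880, 2.07 and 2.90, then 1.21, 4.38 and 2.88, then 0.810, 2.04 and 1.33 in the same order. Fosb read 2.91, 0.290, 1.49 and 2.96, then 1.21, 1.47 and 2.11, then 0.620, 1.29 and 0.330. In all 3 genes the light-treated group holds the lowest or near lowest values and overlaps the untreated group through untreated mouse 1. With light against untreated 5xFAD mice the changes were -1.02 for Junb (standard error 0.55), -1.0 for Egr2 (0.54) and -1.08 for Fosb (0.70), with BH-adjusted p of 0.445, 0.445 and 0.521 by edgeR's quasi-likelihood test.

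Of 14318 genes tested in meninges, 0.0140% were called with light against untreated 5xFAD mice and 12.7% had unadjusted p under 0.05, and edgeR, DESeq2 and limma each called 0 of 8 members with 0 at unadjusted p under 0.05. In untreated 5xFAD against WT mice 0% were called and 4.01% had unadjusted p under 0.05, and edgeR and DESeq2 each called 0 members with 1 at unadjusted p under 0.05, limma 0 with 0. In light-treated 5xFAD against WT mice 0.0140% were called and 16.4% had unadjusted p under 0.05, and all 3 tools called 0 members with 1 at unadjusted p under 0.05. The median member stood at -0.69 with light against untreated 5xFAD mice (0.04 for all genes), at 0.08 in untreated 5xFAD against WT mice (-0.00) and at -0.39 in light-treated 5xFAD against WT mice (0.01).

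Egr1 read 39.5, 18.6, 43.0 and 83.9 FPKM in WT, 43.9, 78.8 and 50.0 in untreated and 41.7, 64.0 and 27.7 in light-treated 5xFAD mice. Ier2 read 52.9, 40.5, 46.3 and 78.2, then 30.4, 60.4 and 66.8, then 47.5, 72.1 and 23.5, and Dusp1 116, 60.1, 72.0 and 109, then 36.0, 97.2 and 149, then 67.8, 119 and 37.9. All 3 overlap fully. Arc averaged 1.63 ± 1.91, 1.41 ± 1.32 and 0.747 ± 0.849, Egr4 0.450 ± 0.343, 0.143 ± 0.0252 and 0.0267 ± 0.0231, and Npas4 0.115 ± 0.109, 0.0767 ± 0.0493 and 0.127 ± 0.114. WT mouse 2 was the lowest of its group for 9 of 10 members and light-treated mouse 2 the highest of its group for 9. Without WT mouse 2 Fosb in light-treated 5xFAD against WT mice came to -1.59, and without light-treated mouse 2 Junb with light against untreated 5xFAD mice came to -1.59, neither called. Arc in light-treated 5xFAD against WT mice went from -1.17 to 0.10 without WT mouse 1. Other libraries move the changes toward 0: Junb with light against untreated 5xFAD mice came to -0.64 without light-treated mouse 4, Egr2 to -0.53 without untreated mouse 2, and Fos in light-treated 5xFAD against WT mice to 0.44 without light-treated mouse 2. Neuronal markers in the meningeal libraries, led by Snap25, summed to 609, 212, 338 and 231 in WT, 297, 279 and 117 in untreated and 137, 455 and 257 in light-treated mice, and leptomeningeal fibroblast markers to 1553, 1164, 1089 and 1151, then 911, 1116 and 2079, then 1577, 1396 and 2067. Of the 10 neuronal markers 4 were lower with light than in WT mice and 2 lower than in untreated 5xFAD mice at unadjusted p under 0.05, 0 called. B and T cell markers, led by Cd79a, summed to 32.4, 33.5, 22.9 and 26.8, then 25.1, 28.4 and 27.9, then 72.4, 52.4 and 36.3, with 3 of 5 higher with light than in either other group at unadjusted p under 0.05, 0 called. Their part in the Junb, Egr2 and Fosb values was not tested.

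**Figure D3:**
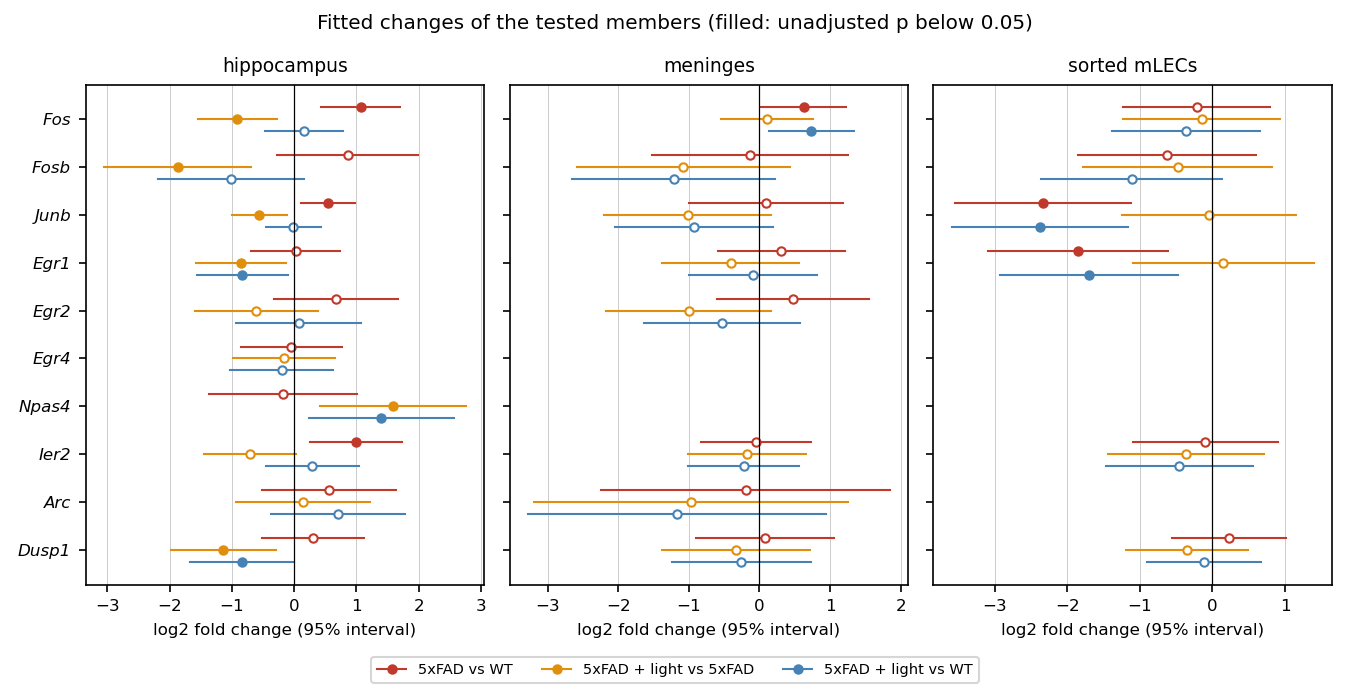
Log2 fold change with 95% interval of each tested member in 3 comparisons and 3 tissues. Filled points have unadjusted p under 0.05. Egr2 in mLECs, with 4 of 10 libraries at 0 and wide intervals, is not drawn.

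In mLECs Junb was the member that separated the groups, lower in both 5xFAD groups than in WT mice without passing edgeR's test. Egr1 read lower in the same direction, and Fos, Ier2 and Dusp1 did not separate. Between light-treated and untreated 5xFAD mice no difference was detectable for any member at this spread.

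Junb read 1830, 4445, 3699 and 2068 FPKM in WT mice, 455, 996 and 577 in untreated 5xFAD mice 1, 2 and 4, and 235, 398 and 1310 in light-treated 5xFAD mice 1 to 3. Every carrier library lies below every WT library, a description, since the share of all genes without overlap is not given here. Means were 3011 ± 1267, 676 ± 284 and 648 ± 579. Junb changed by edgeR's quasi-likelihood test by -2.33 in untreated 5xFAD against WT (standard error 0.56, BH-adjusted p=1.00) and by -2.38 in light-treated 5xFAD against WT (0.56, adjusted p=0.388), values that share the WT libraries. The adjusted p of these 2 results ran from 5.62e-10 to 1 and from 2.17e-10 to 0.883 over the alternatives, with DESeq2 calling Junb in both and limma in neither, edgeR calling it in both without a filter, and edgeR calling it in light-treated 5xFAD against WT mice with mouse number as a block. Without WT mice 2 and 4, a choice made after seeing the data, Junb stood at -2.20 (adjusted p=1) and -2.24 (adjusted p=0.725).

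Egr1 read 239.9, 1477, 524 and 657 FPKM in WT, 128, 369 and 200 in untreated and 204, 202 and 356 in light-treated 5xFAD mice. WT mouse 1 lies inside the carrier values, so the groups overlap. Egr1 changed by -1.85 in untreated (standard error 0.57, adjusted p=1.00) and by -1.70 in light-treated 5xFAD against WT mice (0.57, adjusted p=0.740), and without WT mice 2 and 4 by -0.97 and -0.80. Fosb read 106, 304, 108 and 97.6, then 88.0, 103 and 153, then 104, 49.7 and 95.7, with WT mouse 2 far above the rest. Its change in light-treated 5xFAD against WT mice was -1.11 (0.58, adjusted p=0.807) and came to -0.48 without WT mice 2 and 4, and that in untreated 5xFAD against WT mice went from -0.63 to -0.00.

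Fos read 1388, 2323, 2991 and 1384 FPKM in WT, 1478, 1891 and 2471 in untreated and 519, 2077 and 2441 in light-treated 5xFAD mice. Ier2 read 785, 980, 1172 and 1011, then 1024, 1099 and 966, then 251, 581 and 1529. Dusp1 read 1031, 2994, 1817 and 1504, then 2622, 2651 and 2028, then 1327, 2285 and 1908. All 3 overlap, and light-treated mouse 1 is the lowest library for Fos and Ier2. Egr2 read 0, 159, 19.0 and 26.5 in WT mice, 0, 5.35 and 0 in untreated and 3.43, 0 and 0.0800 in light-treated mice. With 4 of 10 libraries at 0 its changes against WT were -5.45 in untreated (standard error 3.29) and -5.78 in light-treated 5xFAD mice (3.35). Egr2 passed the filter only through WT mice 2, 3 and 4. A lower 5xFAD level was thus a condition of being tested, and its changes are a description. Without WT mice 2 and 4 the changes in untreated and light-treated 5xFAD against WT mice were -2.91 and -3.23 for Egr2, 0.60 and 0.26 for Dusp1, -0.32 and -0.46 for Fos and -0.11 and -0.47 for Ier2, beside 0.23 and -0.11, -0.21 and -0.36, and -0.10 and -0.46 with them for the last 3.

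Of 8188 genes tested in mLECs, 0% were called with light against untreated 5xFAD mice and 4.01% had unadjusted p under 0.05, and edgeR, DESeq2 and limma each called 0 of 7 members with 0 at unadjusted p under 0.05. The largest members there were Fosb (-0.48), Ier2 (-0.36) and Dusp1 (-0.35), each with adjusted p=1, and without light-treated mouse 3 Ier2 came to -1.16. In untreated 5xFAD against WT mice 0% were called and 3.81% had unadjusted p under 0.05, and edgeR called 0 members with 2 at unadjusted p under 0.05, DESeq2 1 with 3 and limma 0 with 2. In light-treated 5xFAD against WT mice the shares were 0.0122% and 6.72%, and the member counts of the 3 tools were the same: edgeR 0 with 2, DESeq2 1 with 3 and limma 0 with 2.

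Of the 7 lymphatic markers 0 had unadjusted p under 0.05 in any of these comparisons, Prox1 read at most 5.71 FPKM, in WT mouse 4, and Pdpn read 0 in WT mice 2 and 4 and in untreated 5xFAD mice 2 and 4. The blood endothelial gene Kdr read 204, 232, 39.8 and 146 in WT, 30.9, 19.0 and 62.6 in untreated and 26.0, 32.2 and 55.2 in light-treated mice, lower in both 5xFAD groups like Junb apart from WT mouse 3. It is the 1 of 6 blood endothelial markers with unadjusted p under 0.05 against WT, and the 6, led by Cldn5, summed to 928, 2818, 1929 and 1195, then 1127, 2563 and 1643, then 840.2, 1225 and 1351. Dcn, a fibroblast gene, read 36.9 to 612 in 9 of 10 libraries and 0.300 in light-treated mouse 3, while Lum read 0 in all 10, and Col1a2 was the 1 of 2 fibroblast markers tested with unadjusted p under 0.05, higher in both 5xFAD groups than in WT mice through 5.56 and 14.0 FPKM in untreated mice 1 and 2 and 13.7 in light-treated mouse 3, with at most 0.0100 in the other 7. The fibroblast sums were 227, 185, 72.7 and 234, then 282, 79.5 and 48.6, then 612, 320.1 and 14.0. Of 3 erythroid genes tested, 3 had unadjusted p under 0.05 lower with light than in either other group, 0 called. In single libraries Acta2 read 291 and 377 in untreated mice 1 and 2, Rgs5 449 in WT mouse 4, and erythroid genes summed to 12368 in untreated mouse 4. Their part in the lower Junb was not tested. Of 38 other immediate early genes tested beside Junb, 6 were lower and 0 higher in untreated 5xFAD than in WT mice at unadjusted p under 0.05 (3.81% of all genes, median -0.67), and 7 were lower and 0 higher in light-treated 5xFAD than in WT mice (6.72% of all genes, median -0.34), 0 called. Jun (-2.75, light-treated) and Nr4a2 (-4.10, untreated) are among them.

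**Figure D4:**
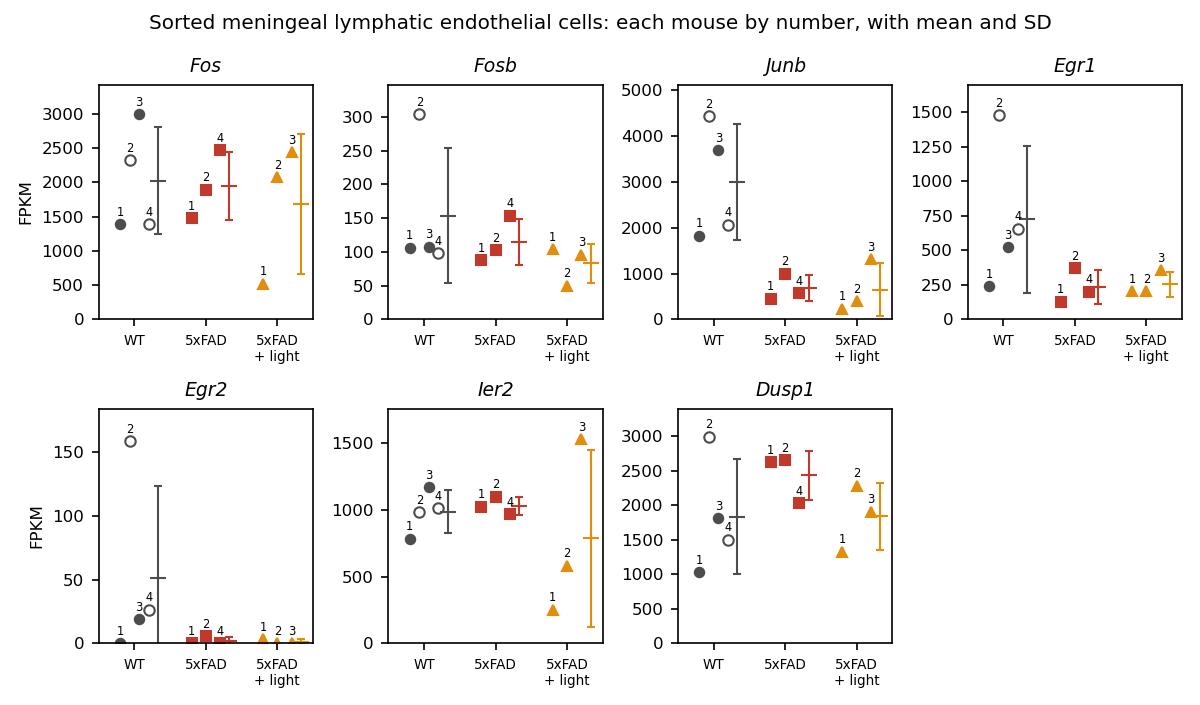
FPKM of the 7 tested members in sorted mLECs by group. Points carry the mouse number, and open circles are WT mice 2 and 4, the libraries with Ccl21a and Lyve1 at or near 0.

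Whether a change differs between meninges and hippocampus was tested on the joint table. The light effect of Fos differed by 1.01 (standard error 0.45, BH-adjusted p=0.222 by edgeR's quasi-likelihood test), since Fos read lower with light in hippocampus and level in meninges. Dusp1 differed by 0.78 (0.69, adjusted p=0.543), and by 0.35 to 1.36 with a library left out. Of all genes 0.971% were called and 19.8% had unadjusted p under 0.05, and edgeR called 0 of 10 members with 1 at unadjusted p under 0.05, DESeq2 0 with 1 and limma 0 with 0. For the 5xFAD effect Ier2 differed by -1.04 (0.55, adjusted p=0.452) and Fosb by -0.98 (0.89, adjusted p=0.709), both lower in meninges. With a library left out Ier2 ran from -1.29 to -0.52, while Fosb ran from -1.36 to 0.23, so its direction turns on single libraries. There 1.69% of genes were called and 12.8% had unadjusted p under 0.05, and edgeR, DESeq2 and limma each called 0 of 10 members with 0 at unadjusted p under 0.05. The median over all 10 members stood at 0.02 for light and -0.45 for 5xFAD, beside 0.06 and -0.11 for all genes. Egr4 and Npas4 entered these fits through hippocampus alone and had at most 15 counts in meninges, so their differences are not given. The medians and the counts of 10 members hold both genes, so the medians are not read as a result.

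Genes outside the members that vary between mice of a group most like the mean of the members were named by a fixed rule, with no test. Values were log2(FPKM + 1) centred on the group means, so likeness holds neither levels nor differences between groups. In hippocampus Dusp1 (r -0.154), Fosb (0.211) and Npas4 (0.374) followed the mean of the other members least, against Ier2 (0.570) to Junb (0.971) for the rest. Over the 12 hippocampal libraries and 10 members these were Samd4b (Pearson r 0.969), Rock1 (0.966), Thoc2l (0.959), Ubtd2 (0.957) and Spred1 (0.953). Over the 10 meningeal libraries and 8 members they were Cmip (0.971), Sugp1 (0.961), Ppp1r15b (0.941), Nr4a1 (0.938) and Cyfip2 (0.936). Nr4a1 is the only other immediate early gene among those named, and Ccn1 came next in order (0.931).

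On GRCm38 (GENCODE vM21) the members lie on 9 chromosomes, with Junb at chr8:84974484-84978718 and Ier2 at chr8:84661331-84662852 on the same one, both on the minus strand. Reads are unstranded, and Junb shares 173 of its 2301 exon bases with Prdx2 on the opposite strand, Dusp1 11 of 3311 with Ergic1, so reads there cannot be told apart. Prdx2 changed by -0.89 and 0.48 in mLECs against WT where Junb changed by -2.33 and -2.38.

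Promoters were read as the 250 bases before each annotated RefSeq start, for 32851 promoters of 27025 genes. 7 of 10 members have an entry (Fos, Fosb, Junb, Egr2, Egr4, Npas4 and Dusp1), and Egr1, Arc and Ier2 have none in the file used. Motifs were searched on both strands, except TATAAA on the sense strand only, and a match is a description of sequence. The full cAMP response element TGACGTCA occurs in 1.55% of all promoters and among the members only in Dusp1, 143 to 136 bases before the start. Its core TGACG, which the full element contains, occurs in 17.8% of promoters and, counted per gene, in 7 of 7 members. In Egr2 it lies at starts 3, 4 and 5 of its 5. The EGR site GCGNGGGCG (4.70% of promoters) occurs in Fosb 50 to 42 bases before the start, the CArG box (CC, 6 bases of A or T, then GG, in 1.47%) in Egr2 at 4 of its 5 starts, and TATAAA (7.59%) in Fos 33 to 28 bases before the start. The AP-1 site, TGACTCA or TGAGTCA (4.46%), occurs in 0 of 7.

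The promoters of the AP-1 members, on which the hippocampal and mLEC results turn, and of Dusp1 with the only full element are given from the GRCm38 genome as annotated by RefSeq (NCBI), sense strand, matches to these motifs in capitals. Fos lies at chr12:85473640-85473889 on the plus strand, with the core at 129 to 125 and 66 to 62 bases before the start. Fosb lies at chr7:19310052-19310295 on the minus strand, its last 6 bases left out as annotated exon, with the core at 60 to 56.

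Fos: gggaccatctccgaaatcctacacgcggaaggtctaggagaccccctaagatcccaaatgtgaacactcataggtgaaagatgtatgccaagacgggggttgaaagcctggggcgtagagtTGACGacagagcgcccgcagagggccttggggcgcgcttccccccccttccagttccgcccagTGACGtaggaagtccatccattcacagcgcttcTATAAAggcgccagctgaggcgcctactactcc

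Fosb: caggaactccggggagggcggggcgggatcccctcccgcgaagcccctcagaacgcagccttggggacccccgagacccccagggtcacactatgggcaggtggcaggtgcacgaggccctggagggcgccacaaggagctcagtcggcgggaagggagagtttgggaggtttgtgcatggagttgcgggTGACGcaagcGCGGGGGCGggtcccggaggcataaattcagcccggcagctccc

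Junb lies at chr8:84978749-84978998 on the minus strand, with the core at 106 to 102 bases before the start. Dusp1 lies at chr17:26508520-26508722 on the minus strand, its last 47 bases left out as annotated exon, with 1 core at 191 to 187 and another inside the full element.

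Junb: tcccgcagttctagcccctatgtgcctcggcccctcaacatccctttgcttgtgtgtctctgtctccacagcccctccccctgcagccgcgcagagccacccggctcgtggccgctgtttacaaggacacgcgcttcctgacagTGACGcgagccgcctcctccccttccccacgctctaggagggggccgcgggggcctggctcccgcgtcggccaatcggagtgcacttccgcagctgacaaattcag

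Dusp1: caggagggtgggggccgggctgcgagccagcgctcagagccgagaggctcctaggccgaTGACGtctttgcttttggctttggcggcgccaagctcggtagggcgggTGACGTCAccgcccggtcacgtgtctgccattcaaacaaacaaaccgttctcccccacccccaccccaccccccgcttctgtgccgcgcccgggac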

How the data were processed

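Hippocampus, meninges and sorted mLECs of single mice were sequenced, 32 libraries in all: 22 in the tissue table and 10 in the mLEC table. The authors deposited an estimated count and an FPKM value per gene and library. Per the study's methods the authors filtered reads with fastp and computed FPKM with RSEM, scaled by transcript length and mapped fragments. The methods do not describe the estimated counts the authors deposited, whose fractional values and unequal library sums are those of unnormalized estimates. The submitters' notes name Trimmomatic, HISAT2 and StringTie instead, without versions, and the files do not show which was used. Between 81.6% and 89.6% of nonzero counts per library are whole exactly as deposited, with no tolerance, and all were rounded before fitting.

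Genes with FPKM of at least 1 in at least 3 libraries of a tissue were tested. Each tissue was fitted with its 3 groups by edgeR 4.0.16 (TMM scaling, quasi-likelihood test, 2-sided), and tissues together for the comparisons between hippocampus and meninges. P was adjusted over all tested genes by Benjamini-Hochberg (BH), and a call needs adjusted p<0.05 and a 2-fold change. Adjusted p in the report comes from this test unless DESeq2 or limma is named. All 10 members are described in every tissue, and genes most like their mean were taken by Pearson r on values centred on the group means. Members and the lists of other immediate early genes, upstream genes, late genes of the response to activity, heat shock genes, glucocorticoid targets and cell type markers were chosen with earlier results of these data known. Lists are described by counts and medians, with no test of a list. Depth per library (medians 17966694, 10660593 and 17980972 counts) makes 3 counts equal to 0.126 to 0.215 CPM in hippocampus, 0.204 to 0.454 in meninges and 0.124 to 0.211 in mLECs.

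Alternatives were RLE scaling, no filter, a mean FPKM of at least 5, fits of 2 groups alone, calls with no fold threshold, DESeq2 1.42.0 and limma 3.58.1 on log2(FPKM + 1) in place of edgeR, a block for mouse number, and each library left out. The fit was also run on simulated data, and the outcome of that run is not used here. Scripts ran in R 4.3.3 and Python 3.11.15 with pandas 2.3.3, numpy 2.4.6 and matplotlib 3.10.9. Gene positions come from GENCODE vM21 and promoters from RefSeq, both on GRCm38.

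Limits: groups hold 3 or 4 mice, so single libraries decide several calls. The tissue and mLEC tables were made separately, and their levels are compared without a test. Where values of a gene do not overlap between groups or tissues, the share of all genes without overlap is not given. Bulk libraries mix cell types. Levels are of RNA at 1 time, so transcription and transcript decay are not separated. These transcripts last minutes to hours, and handling, anaesthesia and the time of collection are shared or unrecorded and could not be modelled. Collection order, cage and batch are not given.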

Additional observations from a re-analysis of the deposited data

Results flagged for a closer look

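In groups of 4 libraries the gap between the most extreme value and its neighbour was set against the range on log2(FPKM + 1), for each member with counts in the tissue. A gap this wide has a chance of about 1 in 20 in each group when the values are normal, and 4 of 48 groups passed. Fosb read 303.56 FPKM in mLECs of WT mouse 2, the highest of its group, and Arc read 13.17 in mLECs of WT mouse 3. In hippocampus Egr4 read 2.61 in WT mouse 1 and Arc 9.42 in untreated 5xFAD mouse 4, each the lowest of its group. No library was left out for these values.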

How the results depend on the processing

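In hippocampus with light against untreated 5xFAD mice 35 genes and 0 members were called. The genes were 61 without a filter, 0 at a mean FPKM of at least 5, 0 with 2 groups alone, 59 without a fold threshold and 192 by DESeq2, which called 1 member. Leaving out each library gave 0 to 136 genes and 0 to 1 members. In untreated 5xFAD against WT mice 556 genes and 1 member, Fos, were called. The genes were 211 at a mean FPKM of at least 5, 1108 without a fold threshold and 318 by limma, and 422 to 642 with a library left out. The members were 0 with 2 groups alone and 0 by limma, and 0 to 1 with a library left out, so the Fos call is not robust and the cause was not tested. In light-treated 5xFAD against WT mice 306 genes became 132 at a mean FPKM of at least 5, 466 without a fold threshold and 186 by limma, with 238 to 323 on leaving out a library, and 0 members became 1 with 2 groups alone and 0 to 0 with a library left out.

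The mouse number as a replicate block changed little in hippocampus apart from Fos (0.97, adjusted p=0.0687, range over all alternatives 0.000831 to 0.109), which left 0 members called in untreated 5xFAD against WT mice. In meninges the replicate block gave 0 genes with light against either group, and in mLECs 3 genes and 1 member, Junb (-2.82, adjusted p=0.0302, range 2.17e-10 to 0.883), in light-treated 5xFAD against WT mice. The numbers do not pair: libraries of like number in 2 groups were no more alike than others (median r -0.0307 in hippocampus, -0.0466 in meninges and -0.00465 in mLECs).

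In meninges 2 genes were called with light against untreated 5xFAD mice (DESeq2 72, limma 1, a library left out 0 to 2) and 2 with light against WT mice (no filter 16, DESeq2 372, a library left out 1 to 134). In untreated 5xFAD against WT mice a library left out gave 0 to 0 genes, and members stayed at 0 to 0 in all 3 comparisons.

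In mLECs 0 genes were called with light against untreated 5xFAD mice (no filter 15, DESeq2 357, a library left out 0 to 0) and 0 in untreated 5xFAD against WT mice (no filter 9, DESeq2 185, a library left out 0 to 0). In light-treated 5xFAD against WT mice 1 was called (no filter 44, DESeq2 464, limma 3, a library left out 0 to 2). Without a filter 2 members, Junb and Egr1, were called in both comparisons with WT, and by DESeq2 1, Junb. Leaving out WT mice 2 and 4, chosen after seeing the data, gave 0 genes. The lower Junb kept its direction under every alternative, and its call depends on the filter, the tool and the block. The cause was not tested.

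Between WT tissues 7782 genes and 7 members were called (7495 to 8008 and 6 to 7 with a library left out, chosen after seeing the data). The 7 members include Egr4 and Npas4, tested through hippocampus alone. The light effect differed between tissues for 147 genes (no filter 54, DESeq2 576, limma 43, a library left out 10 to 244) and the 5xFAD effect for 256 (DESeq2 452, limma 139, a library left out 125 to 319), with 0 to 0 members. With a library left out the sign changed for several small changes, among them Ier2 in mLECs with light against untreated 5xFAD mice (-1.16 to 0.0469) and the difference in the 5xFAD effect on Fosb (-1.36 to 0.23).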

Other observations

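In meninges 2 of 14 targets of the glucocorticoid receptor were called lower with light. Of all 14318 genes tested, 2 (0.0140%) were called with light against untreated 5xFAD mice and 2 (0.0140%) against WT mice. The list was chosen with earlier results of these data known, so the count is a description. By edgeR's quasi-likelihood test with BH adjustment Fkbp5 fell by 2.57 against untreated 5xFAD mice (adjusted p=0.00748) and by 2.39 against WT mice (adjusted p=0.00535), and Zbtb16 by 2.46 (adjusted p=0.0125) and by 2.84 (adjusted p=0.00396), with 11 of 14 targets lower at an unadjusted p under 0.05 in each comparison, beside 12.7% and 16.4% of all genes in either direction. These comparisons share the light-treated libraries. In hippocampus Sgk1 fell by 1.34 (adjusted p=0.000740) and Tsc22d3 by 1.27 (adjusted p=0.00948) in light-treated 5xFAD against WT mice. In the meninges Nr4a3 and Maff had the largest changes among other immediate early genes with light against untreated 5xFAD mice (-3.60, adjusted p=0.219, and -2.22, adjusted p=0.286). Of 38 such genes tested there, 8 were lower and 3 higher in that comparison at unadjusted p under 0.05 (12.7% of all genes). Against WT mice 14 were lower and 3 higher with light (16.4% of all genes), and 0 were called in either comparison.

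Among 13 heat shock genes Hspb1 was called higher in untreated 5xFAD than in WT hippocampus (2.60, adjusted p=0.0450) and read lower with light than in untreated 5xFAD mice short of the line (-3.01, adjusted p=0.0853) by edgeR's quasi-likelihood test. In mLECs 0 of 13 were called in any comparison.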
